A study of Mus musculus with 3 samples.

Results

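The vacuolar protein sorting (Vps) genes encode the machinery that carries membrane and cargo between endosomes, the Golgi apparatus and lysosomes. They were examined here in a map of sites bound by HIF1α in wild-type mouse hearts of the Black-Swiss strain at E12.5, counted in days of embryonic development. The members were chosen by symbol: every protein-coding gene of the RefSeq table whose symbol is Vps followed by a digit, which gave 35 of 21779 protein-coding genes. The family itself was proposed with the peaks near its genes already known, so the distances, scores and calls below describe it and no test is given for them. The series holds 2 HIF1α pulldown libraries and 1 input library, which is chromatin carried through without antibody. All 3 come from hearts of the same genotype, strain and stage. The sources used here do not say whether the pulldowns came from separate pools of embryos, and the heart as a tissue cannot be checked against marker genes in a list of binding sites.

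HIF1α is the oxygen-regulated partner in the hypoxia-inducible factor, which binds DNA as a dimer with ARNT at a short core motif and raises transcription when oxygen is low. Vps proteins work mostly as subunits of large complexes. Retromer lifts receptors out of endosomes for return to the Golgi or the cell surface. HOPS and its sister complex CORVET tether endosomes and lysosomes before they fuse. The ESCRT complexes sort ubiquitinated receptors into vesicles that bud into the endosome and then cut the membrane. GARP tethers vesicles that return from endosomes to the Golgi.

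The authors deposited 17289 merged peaks (mm10 build), each with their own whole-number score of 2 or more. A peak name ends in 1 or 2, read here as the number of merged calls. Of the peaks, 88.5% came from 1 call and 11.5% from 2 calls. A peak of 2 calls is the closest this list comes to a replicate, but calls carry no mark of their pulldown, and the values below therefore have no replicate error. Read depth is unknown from this list. Distances run from a peak centre to the nearer end of a gene, whichever end that is.

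Sequences under peaks show the starts of Vps genes at which HIF1α was called, and sequences of 2 other members show the motif without a peak. They come from the RefSeq promoter table (GRCm38.p6, the assembly behind mm10), which holds 250 bases before to 50 bases after a gene start and matched 22 of the 35 members. Each is printed along the strand of its gene, in lower case, and capitals mark ACGTG or GCGTG on either strand, the core letters of the HIF site. Where ACGTG overlaps its own reverse complement the capitals read CACGTG, the palindrome known as the E-box.

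The first 5 stretches lie under the peak at the start of a Vps gene, 3 of which hold a core motif there and 2 of which, with peaks of 2 calls, do not:
Vps16 (chr2:130424223-130424330, plus strand): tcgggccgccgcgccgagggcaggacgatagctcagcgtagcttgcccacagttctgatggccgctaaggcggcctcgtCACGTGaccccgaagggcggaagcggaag
Vps4b (chr1:106796676-106796773, minus strand): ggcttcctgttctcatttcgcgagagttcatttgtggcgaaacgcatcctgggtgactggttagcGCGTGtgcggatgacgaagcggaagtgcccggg
Vps36 (chr8:22192728-22192828, plus strand): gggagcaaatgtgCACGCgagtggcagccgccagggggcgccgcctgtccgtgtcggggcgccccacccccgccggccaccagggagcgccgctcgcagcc
Vps37d (chr5:135078266-135078445, minus strand): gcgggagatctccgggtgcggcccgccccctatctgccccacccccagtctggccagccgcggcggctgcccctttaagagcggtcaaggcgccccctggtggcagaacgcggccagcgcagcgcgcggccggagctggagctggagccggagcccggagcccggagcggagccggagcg
Vps13d (chr4:145194991-145195093, minus strand): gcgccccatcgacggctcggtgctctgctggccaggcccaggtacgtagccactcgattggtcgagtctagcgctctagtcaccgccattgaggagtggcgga

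The next 2 are whole promoters that no peak overlaps, shown because both hold the palindrome more than once:
Vps26a (chr10:62486756-62487055, minus strand): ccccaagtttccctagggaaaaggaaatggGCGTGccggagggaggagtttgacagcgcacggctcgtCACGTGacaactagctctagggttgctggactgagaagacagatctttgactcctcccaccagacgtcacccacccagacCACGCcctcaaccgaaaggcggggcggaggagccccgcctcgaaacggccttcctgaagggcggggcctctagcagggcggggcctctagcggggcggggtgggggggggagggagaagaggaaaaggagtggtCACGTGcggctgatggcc
Vps33a (chr5:123572966-123573265, minus strand): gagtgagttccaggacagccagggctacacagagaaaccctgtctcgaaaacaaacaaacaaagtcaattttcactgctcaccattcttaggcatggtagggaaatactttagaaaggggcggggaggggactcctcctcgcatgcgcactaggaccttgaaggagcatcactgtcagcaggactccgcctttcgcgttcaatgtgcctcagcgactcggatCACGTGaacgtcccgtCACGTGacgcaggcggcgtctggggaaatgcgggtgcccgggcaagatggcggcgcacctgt

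Most Vps genes carried a HIF1α peak at one of their ends. A peak centre lay within 1 kb of 19 of the 35 Vps genes (54.3%), against 16.2% of the 21744 other protein-coding genes. Without olfactory, vomeronasal and predicted genes, the share was 18.2% of the 18538 other genes left. The other genes were not matched to the members for the CpG content of their promoters. Widening the window to 5 kb added 1 member, giving 20 of 35 (57.1%) against 23.9% of other genes. Within 50 kb it was 28 of 35 (80.0%), against 63.6% of other genes. The members stood furthest from the background in the narrowest window, where their share was 3.35 times that of other genes or 38.1 percentage points above it. They stood least far at 50 kb, where it was 1.26 times or 16.4 points above.

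For peaks of 2 calls, the shares were 4.15 times those of other genes at 1 kb, 3.72 times at 5 kb and 2.04 times at 50 kb. In percentage points the order was the other way, with gaps of 17.3, 20.9 and 21.9. Such a peak lay within 1 kb of 8 Vps genes (22.9%), against 5.51% of other genes. Within 5 kb there were 10 (28.6%), against 7.69%. Within 50 kb there were 15 (42.9%), against 21.0%.

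**Figure D1:**
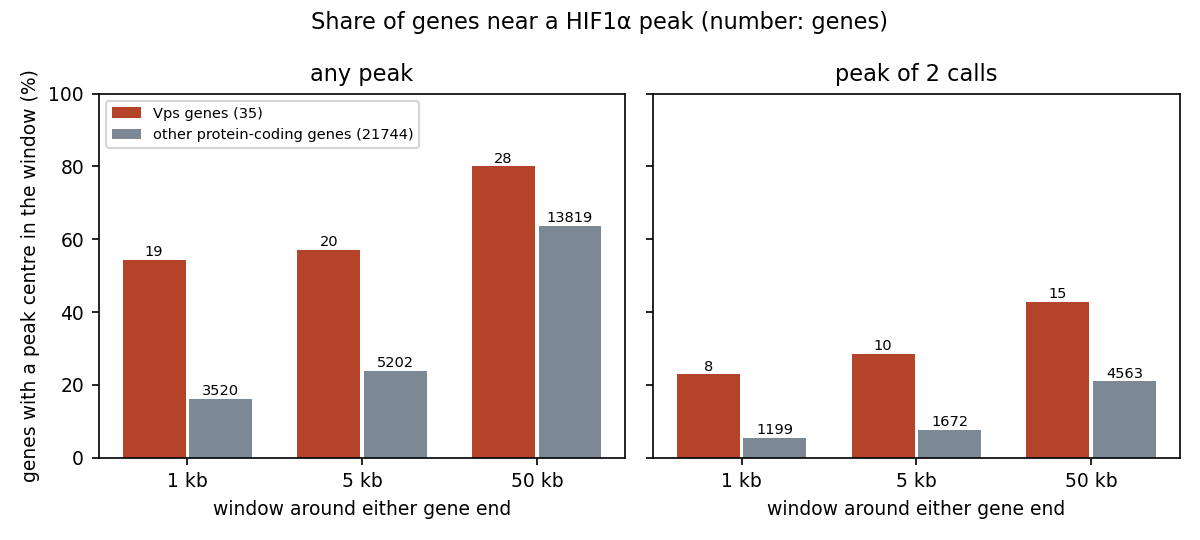
Share of genes with a HIF1α peak centre within 1, 5 and 50 kb of either gene end, in percent, for all peaks (left) and for peaks of 2 calls (right). Red bars are the 35 Vps genes and grey bars the 21744 other protein-coding genes, with the number of genes above each bar; the red bar is the taller of each pair, from 54.3% against 16.2% at 1 kb to 80.0% against 63.6% at 50 kb.

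Where a Vps gene had a peak within 1 kb, the peak sat close to the gene end. The nearest centre lay within 200 bp in 18 of the 19 members near a peak at 1 kb (94.7%), against 59.9% of the 3520 other genes near a peak at that window. The exception was Vps35l, at 479 bp. The median distance in these genes was 77.0 bp for Vps genes and 146 bp for other genes. Over whole sets the median distance was 0.198 kb for the 35 Vps genes and 28.4 kb for other genes.

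For the members with a stored promoter, the strand shows which end carried the peak. In all 11 of these with a peak within 1 kb, it was the 5′ end. Other genes with a stored promoter gave nearly equal shares by either measure. A peak lay within 1 kb of either end in 16.4% of them, and within 1 kb of a gene start in 16.5%. A place at the gene start is therefore not particular to Vps genes. The peak centres lay between 89 bp upstream and 198 bp downstream of the nearest stored gene start (positions -89 to 198). The other 8 members near a peak have no stored strand, so their peak was placed at a gene end only. The gene table gives no exons, and positions were not resolved into exon, intron or UTR.

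**Figure D2:**
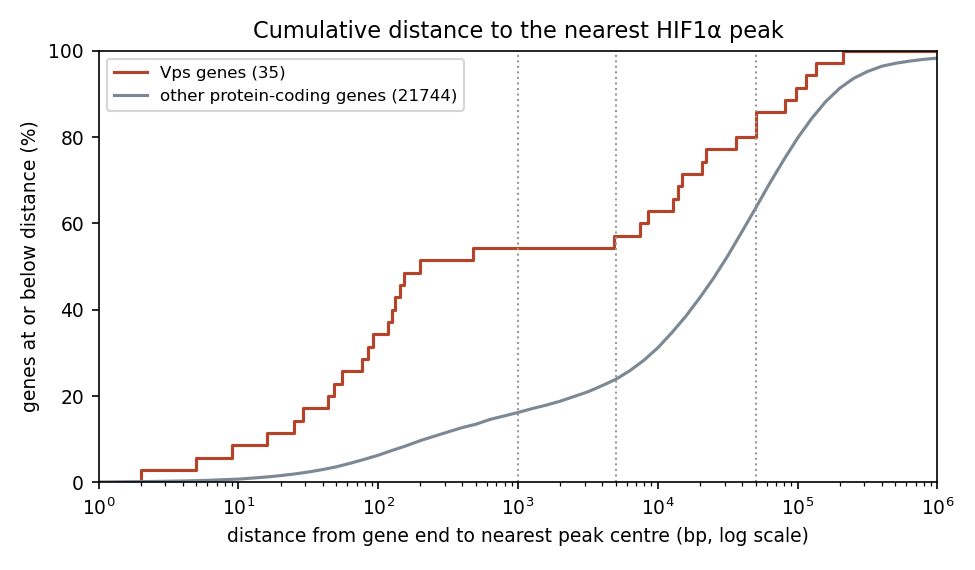
Cumulative share of genes, in percent, against the distance in bp (log axis) from the nearest HIF1α peak centre to the nearer gene end. The red line is the 35 Vps genes and the grey line the 21744 other protein-coding genes; the red line reaches 54.3% by 479 bp and stays level to 4857 bp, while the grey line is at 16.2% at 1 kb and climbs most beyond 5 kb (dotted lines: 1, 5 and 50 kb).

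The scores at Vps genes had a higher median than those at other genes near a peak, but did not reach their highest values. Among the 19 members near a peak within 1 kb, the nearest peak scored 2 to 6 with a median of 4, against a median of 3 and a highest value of 157 in other genes near a peak. None of the 19 had a nearest peak of score 7 or more, against 7.98% of the other genes near a peak. At the low end, 1 of the 19 (5.26%) had the lowest score of 2, against 13.0% of other genes. In the list as a whole, 15.4% of peaks scored 4 or more and 4.08% scored 6 or more. The nearest peak was of 2 calls in 8 of the 19 (42.1%), against 33.0% of other genes near a peak.

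**Figure D3:**
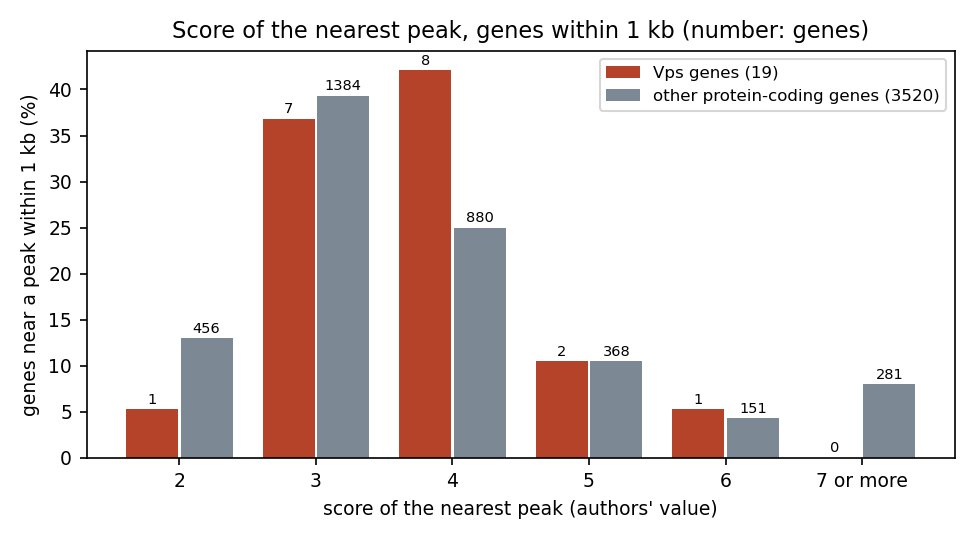
Score of the nearest peak (horizontal axis, the authors' value) for genes with a peak centre within 1 kb, as a percent of such genes, with the number of genes above each bar. Red bars are the 19 Vps genes and grey bars the 3520 other protein-coding genes; 8 Vps genes stand at a score of 4 and none at 7 or more, where 281 other genes stand.

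ESCRT genes were the named complex with most members at a peak. Of 9 ESCRT members, 6 had a peak within 1 kb, of which 3 had a peak of 2 calls, and the median distance over all 9 was 55.0 bp. Of genes outside the Vps family, 16.2% had a peak and 5.51% a peak of 2 calls in that window, which is the background for each count by complex at 1 kb. ESCRT-I, the complex that recognises ubiquitinated cargo, accounted for 4 of these 6 from its 5 members.

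The Vps37 genes encode alternative versions of 1 ESCRT-I subunit. Vps37a had the highest score among peaks within 1 kb of a member, a 2-call peak of score 6 centred 9 bp outside the gene (chromosome 8, 40511674 to 40511792). That peak also lay inside the span of the neighbouring gene Cnot7, 4114 bp from its nearer end. Vps37d had a 2-call peak of score 4 at 29 bp (chromosome 5, 135078266 to 135078445). The stretch printed for it holds neither core motif. Vps37c had a 1-call peak of score 3, inside the gene at 117 bp (chromosome 19, 10688802 to 10688902). Vps37b stood apart from its 3 relatives, with its nearest peak 97.5 kb away. Vps28, another ESCRT-I subunit, had a 2-call peak of score 4 at 16 bp (chromosome 15, 76626043 to 76626157). That peak was also 137 bp from an end of the neighbouring gene Tonsl.

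ESCRT-II and the ESCRT-III disassembly ATPases were split. Vps36, the ubiquitin-binding subunit of ESCRT-II, had a 1-call peak of score 4 at 55 bp (chromosome 8, 22192728 to 22192828), whereas the nearest peak to its partner Vps25 was 80.7 kb away. Of the ATPases that pull ESCRT-III filaments apart, Vps4b had the centre closest to a gene end of any member, 2 bp, in a 1-call peak of score 3 (chromosome 1, 106796673 to 106796773). The nearest peak to Vps4a was 50.7 kb away, just outside the widest window. The printed stretches of Vps36 and Vps4b each hold 1 GCGTG match.

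The HOPS members divided by subunit. In the core that HOPS shares with CORVET, 3 of 4 members had a peak within 1 kb, and of the 2 subunits particular to HOPS neither did. Vps16 had a 2-call peak of score 4 at 44 bp (chromosome 2, 130424223 to 130424330), and CACGTG lies within the printed stretch. An end of Pced1a was 365 bp from the same peak. Vps18 had a 1-call peak of score 3 at 85 bp (chromosome 2, 119288607 to 119288707). Vps11 had 2 neighbouring 1-call peaks of score 3, at 125 and 278 bp from the same end (chromosome 9, 44361748 to 44361848 and 44361901 to 44362001).

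The remaining HOPS genes had only distant peaks. Vps33a, a Sec1/Munc18-like member of the core, had its nearest peak 36.2 kb away, the widest distance of any member inside the 50 kb window. For the subunits at either tip of HOPS, the distance was 20.7 kb at Vps41 and 211 kb at Vps39. Vps8, which takes the place of a HOPS subunit in CORVET, had a 2-call peak of score 4 inside the gene at 131 bp (chromosome 16, 21423198 to 21423300). Vps33b, which works in a complex separate from HOPS, had its nearest peak 8.54 kb away and only 134 bp from Ngrn.

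No retromer gene had a peak within 1 kb, where 16.2% of other genes did, so that 0 of 4 is close to the background. Of the 4 genes, Vps26b alone was within 5 kb, through a 2-call peak of score 3 at 4857 bp, and it is the member nearest to the inside of that window. The same peak was 3 bp from the end of Thyn1. Just outside the window stood Vps29, with a 2-call peak of score 4 at 7455 bp that was 69 bp from Gpn3. Vps35, the scaffold of retromer, had a 2-call peak of score 3 at 12.7 kb. Vps26a had a 1-call peak of score 2 at 13.9 kb, inside the neighbour Srgn. The nearest peak of each retromer gene lay closer to another protein-coding gene.

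The 2 members particular to retriever, a retromer-like complex for recycling to the cell surface, both had a peak within 1 kb. Vps29 was counted with retromer only. Vps35l had a 2-call peak of score 5 inside the gene at 479 bp (chromosome 7, 118740604 to 118740710). Vps26c had a 1-call peak of score 4 inside the gene at 198 bp (chromosome 16, 94526381 to 94526481).

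GARP genes were divided evenly at 1 kb, with 2 of 4 near a peak. Vps51 had a 2-call peak of score 4 at 91 bp (chromosome 19, 6077220 to 6077337), and an end of Tmem262 was 597 bp from the same peak. Vps52 had a 1-call peak of score 3 inside the gene at 77 bp (chromosome 17, 33955806 to 33955906), and an end of the ribosomal protein gene Rps18 was 191 bp away. Vps53 had a 2-call peak of score 5, but 22.2 kb away. The nearest peak to Vps54, the subunit that sets GARP apart from EARP, was 50.1 kb away. Vps50, its counterpart in the recycling complex EARP, had a 1-call peak of score 3 at 25 bp (chromosome 6, 3498318 to 3498418), and an end of Hepacam2 was 46 bp away.

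**Figure D4:**
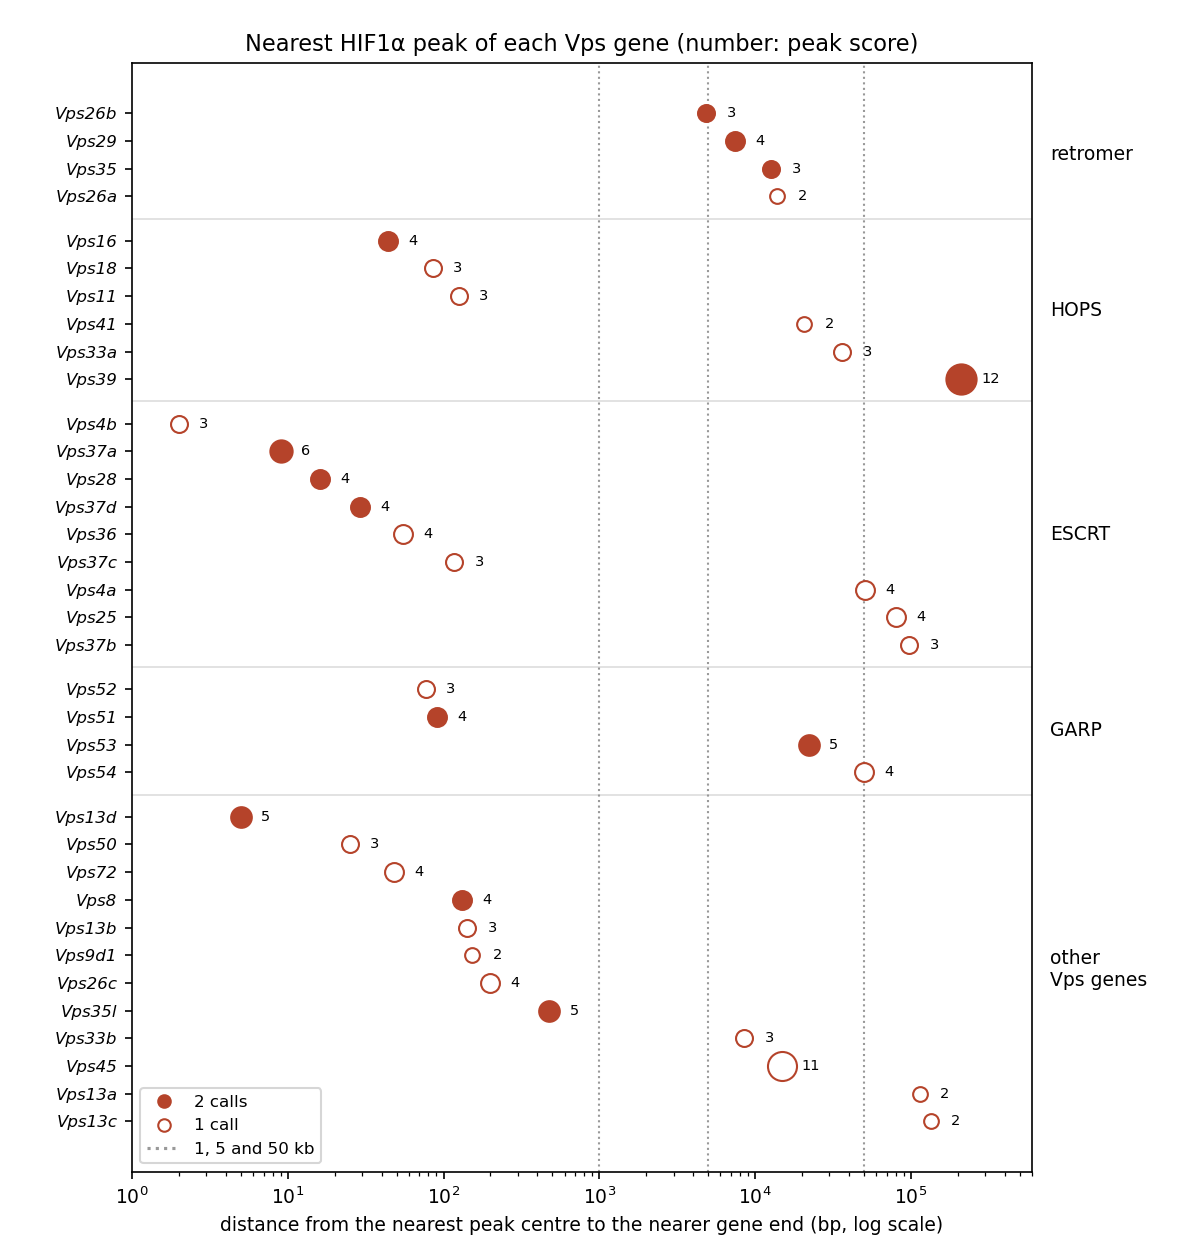
Distance in bp (log axis) from the nearest HIF1α peak centre to the nearer gene end for each of the 35 Vps genes, grouped by complex. Filled points are peaks of 2 calls, open points peaks of 1 call, point size and number give the score, and dotted lines mark 1, 5 and 50 kb; the 4 retromer genes stand between 4857 and 13869 bp, while 6 of the 9 ESCRT genes stand at 117 bp or less.

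The VPS13 genes encode long bridge-like proteins that move lipids between membranes, and 2 of the 4 had a peak. Vps13d, which acts at mitochondria and the endoplasmic reticulum, had a 2-call peak of score 5 at 5 bp (chromosome 4, 145194991 to 145195093). Vps13b had a pair of peaks of 1 call inside the gene, of score 3 at 142 bp and score 4 at 289 bp (chromosome 15, 35371210 to 35371310 and 35371357 to 35371457). The nearest peaks to Vps13a and Vps13c were 114 kb and 135 kb away. Vps13b, with a span of 560 kb, also held 5 peaks deeper in the gene, each of 1 call with scores of 2 or 3.

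The other members do not belong to these complexes. Vps72 is a subunit of chromatin complexes that handle the histone variant H2A.Z and shares only the name. It had a 1-call peak of score 4 at 48 bp (chromosome 3, 95110944 to 95111044). Without it, 19 of 34 members were within 5 kb of a peak. Vps9d1 had a 1-call peak of score 2 at 153 bp, the sole nearest peak of the 19 that was closer to another protein-coding gene (Zfp276, at 126 bp). Vps45, a partner of syntaxins in membrane fusion, had no peak within 5 kb. Inside this gene, 14.8 kb from its end, lay a peak of score 11 from 1 call (chromosome 3, 96044817 to 96044917). Among the 15300 peaks of 1 call, only 9 reached a score of 11.

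Away from gene ends, 9 of the 35 members (25.7%) held 14 peaks inside the gene and over 5 kb from both ends, against 11.3% of other protein-coding genes. Per Mb of gene lying that deep there were 6.28 such peaks in Vps genes and 4.79 in other genes. Among genes over 10 kb long, 30.0% of Vps genes and 17.7% of other genes held such a peak. All 14 peaks in Vps genes were of 1 call, as were 88.5% of peaks in the whole list. Apart from the peak of score 11 in Vps45 the 14 scored 2 to 4, and the score of 4 was in Vps13d, 129 kb from its nearer end.

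Neighbouring genes were close to many members. Another protein-coding gene end lay within 1 kb of an end of 18 of the 35 Vps genes (51.4%), against 24.7% of other genes. Among genes with such a neighbour, 10 of 18 Vps genes (55.6%) were near a peak at 1 kb, against 25.9% of other genes. Among genes without one, it was 9 of 17 (52.9%), against 13.0%. Of the 19 members near a peak at 1 kb, 6 had their nearest peak also within 1 kb of another protein-coding gene. At 50 kb the link to the member was weakest: of 57 peaks within 50 kb of a Vps gene, the member's own end was the nearest protein-coding end for 27.

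The core motif was found in Vps promoters with and without peaks. Of the 27 stored promoters of 22 members, 20 held ACGTG or GCGTG on either strand (74.1%), against 49.3% of 21236 promoters of other protein-coding genes. ACGTG alone was in 37.0% of Vps promoters, against 20.8% of the others. GCGTG was in 55.6%, against 38.5%. CACGTG, which contains ACGTG on both strands, was in 5 of 27 (18.5%), against 7.82%. Several promoters of 1 gene overlap, so these are not independent sequences. The median number of CpG per promoter was 22.0 in Vps promoters and 13.0 in the others. In the 1798 promoters of other genes with a peak centre inside, it was 24.0. The part of CpG content in the motif shares and in the shares of genes near a peak was not tested.

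Within the family, stored promoters with a peak centre inside did not hold the motif more often than those without one. Of the 9 Vps promoters with a peak centre inside, 6 held ACGTG or GCGTG (66.7%), against 14 of 18 without one (77.8%). Those 18 included motif-bearing promoters of Vps26c, Vps37c and Vps8. The peaks of these 3 genes were centred 198, 117 and 131 bp downstream of the start, beyond the stored 50 bases. Further promoters of Vps13d and Vps52 and both of Vps26a were also among the 18, so the contrast is of windows and not of genes. In other protein-coding genes the shares were 76.9% of 1798 promoters with a peak centre inside and 46.8% of 19438 without one. Vps16 held CACGTG under its peak, and in Vps50 it began on the last base under the peak and ran beyond it. Vps26a and Vps33a, whose promoters are printed above, held CACGTG with no peak within 5 kb. Of the 8 members with a peak over a stored promoter, 3 held a whole core motif under the peak (Vps16, Vps36 and Vps4b) and 5 did not (Vps13d, Vps18, Vps37d, Vps50 and Vps52). Vps13d and Vps37d had peaks of 2 calls. A match is a description of letters, and its absence from these windows says nothing of binding nearby.

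Genes that work with Vps proteins under other symbols were counted in the same way. Of 81 such genes, 34 were within 5 kb of a peak (42.0%), against 23.9% of protein-coding genes outside the Vps family, and 15 were within 5 kb of a peak of 2 calls (18.5%), against 7.69%. Retromer partners had peaks where the retromer core had none at 1 kb: 7 of 16 were within 1 kb. They included Rab7, a GTPase of late endosomes (2 calls, score 6, 83 bp), and Washc1, of the actin-nucleating WASH complex (2 calls, score 4, 97 bp). Among Commander genes, which work with retriever, 6 of 13 were within 1 kb, with peaks of 2 calls at Commd2 (65 bp), Commd3 (637 bp) and Commd4 (27 bp).

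The background for partner counts at 1 kb is likewise 16.2% of genes outside the Vps family. Of ESCRT genes without a Vps symbol, 6 of 21 were within 1 kb, with peaks of 2 calls at Chmp4b (score 3, 184 bp), Chmp7 (score 4, 11 bp) and Ist1 (score 8, 53 bp). Of HOPS, CORVET and CHEVI partners, 1 of 8 was within 1 kb, a share near that background. For GARP and EARP partners it was 3 of 7, with peaks of 2 calls at the SNARE gene Stx16 (score 5, 13 bp) and at Rab6a (score 6, 100 bp). Class III PI3 kinase genes, which make the lipid that marks early endosomes, gave 2 of 7, and neither was near a peak of 2 calls. The SRCAP complex, which contains the Vps72 protein, gave 5 of 9, with a gene for the histone H2A.Z counted among the 9. The genes of this list with peaks of 2 calls within 1 kb were Srcap (score 3, 237 bp) and Znhit1 (score 13, 976 bp).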

How the data were processed

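Chromatin of E12.5 mouse hearts was precipitated with an antibody against HIF1α in 2 libraries and sequenced beside 1 input. Per the submitters' processing notes, Bowtie2 and HOMER were used on mm10; no version, calling threshold or merge rule is stated there. The deposited file is 1 merged list whose header names peaks of each pulldown against the input. Its score per peak was made by the authors, and the file headers do not say what it is relative to.

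Gene spans came from a RefSeq table of GRCm38.p6. Genes starting below 3 Mb (except on Y), mitochondrial genes and genes with no chromosome were left out. Peak centres were set against either gene end with Python 3.11.15, pandas 2.3.3 and numpy 2.4.6, and the distance code was tested on simulated positions. The members, complexes and partner lists were chosen with earlier results of these data known. No sample-level test was possible, so counts stand beside those of other genes. Named partner genes are those with a peak of 2 calls within 1 kb. Of 83 partner symbols, 1 did not match and 1 is a synonym of Vps26c. Alternatives covered the score minimum, assignment to the nearest gene, peak overlap, gene starts alone, peaks inside genes, the background, the window and the promoter part; leaving out Vps72 was chosen after seeing the data. Leaving out a pulldown could not be tried, since calls are not marked by library.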

Additional observations from a re-analysis of the deposited data

How the results depend on the processing

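The share of Vps genes near a peak minus that of other genes was 38.1 percentage points at 1 kb, 33.2 at 5 kb, 16.4 at 50 kb and 20.9 for peaks of 2 calls at 5 kb. It stayed above 0 under each setting tried. At 1 kb it ranged from 26.4 (scores of at least 4) to 40.8 (a window of 500 bp), and at 5 kb from 26.6 (scores of at least 4) to 35.0 (scores of at least 3). For peaks of 2 calls it ranged from 11.7 (gene starts alone, in the 22 members with a stored promoter) to 21.0 (scores of at least 3). With each peak given only to its nearest protein-coding gene, 18 members were within 5 kb, and 8 by a peak of 2 calls. At 50 kb that setting left 20 of 35 members (57.1%) against 32.7% of other genes. The excess of either core motif was 24.8 points over the whole promoter and 18.1 over its last 150 bases. Each was held against the exact 95% Clopper-Pearson interval of the members' share minus the share of other genes, which was 20.5 to 55.0 points at 1 kb, 15.4 to 49.8 at 5 kb, 6.95 to 38.6 for peaks of 2 calls, -0.491 to 28.0 at 50 kb and 4.41 to 39.6 for the motif. None fell outside its interval. The intervals cover counting error only, and the interval for the motif counts overlapping promoters of 1 gene as if they were independent. At 50 kb the interval includes 0. The intervals are wide, the settings reuse the same peaks or promoters, and the family was proposed with its peaks known. The intervals therefore give no test of the excess. No paired analysis was possible because the list does not mark which pulldown gave a call. Depth is unknown, so an end without a peak may hold binding below the calling threshold.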

Other observations

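Vps genes that are copies of each other often differed in their peaks. Among the pairs and groups of copies, Vps4b had a peak at 2 bp and Vps4a none within 50 kb. Vps37a, Vps37c and Vps37d had peaks within 117 bp and Vps37b none within 50 kb. Vps13b and Vps13d had peaks within 142 bp, whereas Vps13a and Vps13c had none within 50 kb. Vps26c had a peak at 198 bp, whereas Vps26a and Vps26b had none within 1 kb. At Vps33a and Vps33b neither copy had a peak within 5 kb.

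Vps39, the member farthest from a peak, was 211 kb from a 2-call peak that scored 12.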
